A study of Mus musculus with 3 samples.

Results

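The 39 genes described here are the core cell cycle engine of the mouse: the cyclins A, B, D, E, F and H, the cyclin-dependent kinases (CDKs) 1, 2, 4, 6 and 7, their inhibitors, phosphatases and inhibitory kinases, the retinoblastoma family and the E2F and DP transcription factors. They were taken as a named list, 39 of 55196 genes measured, and were read in Ba/F3, a mouse haematopoietic line that depends on interleukin-3 (IL-3). The samples were 3 replicates labelled in vitro, called cultures here, and the labels do not say whether they were grown separately. All were in RPMI medium with 10% fetal calf serum, penicillin and streptomycin. They had 0.2 ng/mL recombinant murine IL-3 at 37 °C and 5% CO2. They form 1 group for which the labels name no genetic change, no added agent besides IL-3 and no contrast of conditions, and all come from the same line. The comparisons are therefore between members and between cultures. The wider study concerns ITPK1 and the killing of tumour cells by neutrophils with IgA antibodies.

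Cyclins are the regulatory subunits that switch on CDKs. D-type cyclins with CDK4 or CDK6, then E-type cyclins with CDK2, phosphorylate the retinoblastoma protein RB and its relatives p107 and p130, which releases E2F factors to transcribe genes of DNA synthesis. Cyclin A and B with CDK1 and CDK2 later carry the cell through S phase and mitosis, CDC25 phosphatases activate the kinases and WEE1 and PKMYT1 restrain them. In haematopoietic cells cytokine signals such as IL-3 are known to act on this system through the D-type cyclins and through p27, the product of Cdkn1b.

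Of the 39 members, 36 were detected, which here means at least 1 CPM (reads per 1000000 gene reads) in each of the cultures, beside 19.9% of all genes and 45.9% of protein-coding genes. Between cultures the detected members varied little: the median coefficient of variation was 3.52%, and 4.48% over all 10991 detected genes. Both values include counting noise, which is smaller for genes with more reads, and genes were not matched for reads. The undetected members were Ccna1, Ccnb3 and Ccnd1. Libraries held 32044889, 33880292 and 37180883 reads in cultures 1, 2 and 3, so that 3 reads, the most that a gene with no read could be held to have, equalled 0.0936, 0.0885 and 0.0807 CPM, for counting error only. The line was checked against its markers. All 3 IL-3 receptor genes and all 5 general haematopoietic genes were detected (Ptprc at 437 ± 23.4 CPM), as were 3 of 5 macrophage genes (Cd68 at 88.3 ± 1.60, Adgre1 at 25.8 ± 1.57, Csf1r at 1.91 ± 0.209), while Mrc1 and Marco had no read. B lineage markers were largely missing, with 2 of 10 detected (Cd79b at 19.5 ± 1.22, Cd79a at 1.75 ± 0.118) and 6 without a read, and none of 6 fibroblast or 4 epithelial genes was detected.

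Promoters show the sequence side of this circuit, since E2F and the repressor complexes built on p107 and p130 act at short motifs there. RefSeq promoters (GRCm38.p6, 250 bases before to 50 after the start) were at hand for 28 of the 39 members, as 34 windows. Those of Ccna2, Ccnd1, Ccnd2, Ccne2, Ccnh, Cdc25c, Wee1, Pkmyt1, Rb1, E2f4 and E2f5 were not used here. An E2F motif (TTTCGCGC, TTTGGCGC, TTTCCCGC or TTTGCCGC, either strand) stood in 9 of 34 member windows, 26.5%, against 2.26% of all 32851 windows and 4.17% of those of detected genes. The genes that hold it were Cdc25a, Cdk1, Cdk2, E2f2, E2f3, E2f7, Rbl1 and Tfdp1, whose 2 windows overlap and hold the same match. A CHR motif, the cell cycle genes homology region (TTTGAA or TTCGAA, either strand), stood in 9 windows, 26.5%, against 19.2% of all windows and 14.3% of those of detected genes: Ccnb2, Ccnf, Cdc25b, Cdk1, Cdkn3, E2f2, E2f3, E2f8 and Rbl2. CCAAT, either strand, stood in 18 windows, 52.9% beside 37.4%. Member windows were also richer in G and C, with a median of 65% beside 60.7% for detected genes and 52.7% for all, and the part of base composition in these shares was not tested. No motif searched is contained in another, and TTCGAA reads the same on both strands.

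The following 3 promoters carry an E2F motif, a CHR motif or both, and are shown from 180 bases before to 30 after the RefSeq start, 5′ to 3′ on the gene's strand. Capitals mark the E2F, CHR and CCAAT letters, the last written ATTGG where it lies on the other strand. They are Cdk1 (chr10:69352883-69353092, minus strand), Ccnb2 (chr9:70421525-70421734, minus strand) and Rbl1 (chr2:157204505-157204714, minus strand).
Cdk1: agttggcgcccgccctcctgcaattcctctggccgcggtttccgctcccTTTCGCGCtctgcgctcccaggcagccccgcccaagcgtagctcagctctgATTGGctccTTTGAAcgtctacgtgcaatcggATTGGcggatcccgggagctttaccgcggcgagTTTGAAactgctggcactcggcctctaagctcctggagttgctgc
Ccnb2: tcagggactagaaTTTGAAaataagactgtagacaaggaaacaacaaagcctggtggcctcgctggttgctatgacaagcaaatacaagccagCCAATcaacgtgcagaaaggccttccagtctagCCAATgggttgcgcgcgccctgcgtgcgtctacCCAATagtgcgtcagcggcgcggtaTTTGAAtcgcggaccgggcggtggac
Rbl1: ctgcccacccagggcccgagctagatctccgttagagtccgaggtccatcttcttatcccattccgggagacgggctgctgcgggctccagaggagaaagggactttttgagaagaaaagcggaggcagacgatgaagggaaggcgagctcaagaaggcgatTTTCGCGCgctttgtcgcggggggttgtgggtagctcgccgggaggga
In Cdk1 the E2F letters begin 131 bases before the start and CHR letters 71 and 15 bases before it. Ccnb2 has CHR letters beginning 167 bases before the start and at base 5 after it, with 3 CCAAT between them, and no E2F letters. Rbl1 has E2F letters 18 bases before the start. A match of letters is a description and not a bound site.

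The D-type cyclins, which couple growth signals to CDK4 and CDK6, were read from Ccnd2 and Ccnd3 and hardly from Ccnd1. Ccnd2 (chromosome 6, 127125162 to 127152193, minus strand) stood at 645, 685 and 672 CPM in cultures 1, 2 and 3, a mean of 667 ± 20.4 (SD, n = 3, as for all values below). Ccnd3 (chromosome 17, 47505051 to 47599691, plus strand) stood at 404, 416 and 473, with culture 3 highest. Ccnd1 (chromosome 7, 144929931 to 144939925, minus strand) had 10, 15 and 11 reads, or 0.312, 0.443 and 0.296 CPM, above the 3-read floor in every culture and far below 1 CPM. On the opposite strand, Ccnd1 shares 23.4% of its exon bases with LTO1, a gene read at 16.01 CPM, so the source of these few reads is uncertain where the strand setting of the counting is not given. Levels of different genes were compared per kilobase, as CPM divided by the length of the union of annotated exons (RPKM). On this scale Ccnd3 was 686 ± 177 times Ccnd1, and Ccnd1 made up 0.0620 ± 0.0145% of the D-type total. Division by the longest transcript or the coding length raised the ratio to 1239 or 1291. The order of the expressed pair depended on the length. Ccnd2 to Ccnd3 was 1.45 ± 0.111 with the exon union, 1.57 ± 0.120 with the coding length and 0.947 ± 0.0726 with the longest transcript. By that last length Ccnd3 held the larger share of the D-type total in cultures 1 and 3. In culture 2 Ccnd2 held it, at 50.05% against 49.89%.

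Among the E-type cyclins, the partners of CDK2 at the start of S phase, Ccne1 stood at 33.5, 32.3 and 29.0 CPM and Ccne2 at 34.3, 34.4 and 33.7. Ccne1 to Ccne2 was 1.21 ± 0.0763 per kilobase of exon union and 0.915 ± 0.0575 per kilobase of coding sequence, so neither gene led under every length. Ccne2 shares 17.4% of its exon bases with Ints8 on the other strand, a gene read at 71.7 CPM.

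The cyclins of S phase and mitosis were expressed from their somatic genes. Ccna2, the somatic A-type cyclin, stood at 228, 231 and 224 CPM in cultures 1, 2 and 3. Ccna1, known mainly from the male germ line, had no read in any culture, which makes Ccna2 at least 1094-fold higher per kilobase in each library, with Ccna1 set to 3 reads per library. Ccnb2 stood at 113, 116 and 114 and Ccnb1, the main mitotic B-type cyclin, at 77.2, 73.3 and 72.2. Ccnb3, a B-type cyclin known from meiosis, had 1 read in culture 1 and none in cultures 2 and 3. Per kilobase Ccnb2 led at 74.7 ± 0.806, above Ccna2 at 55.8 ± 0.926 and Ccnb1 at 17.6 ± 0.619, and Ccnb2 was 4.25 ± 0.184 times Ccnb1. With the longest transcript that ratio was 2.51 ± 0.108 and with the coding length 1.67 ± 0.0721, in the same direction. Ccna2 led these genes by the other lengths, at 76.8 beside 74.7 for Ccnb2 per kilobase of longest transcript and 179.8 beside 95.8 per kilobase of coding sequence. Ccna2 was 3.17 ± 0.108 times Ccnb1. The Ccnb1 value is uncertain: 23.4% of the 50-base windows of its transcripts also occur in other annotated transcripts, mostly in the processed pseudogene Ccnb1-ps (0.00984 CPM), and the treatment of reads with several matches is not given in the sources used here. Ccnf, the cyclin F gene whose product is the substrate-binding part of a ubiquitin ligase, stood at 98.3, 102 and 101.

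**Figure D1:**
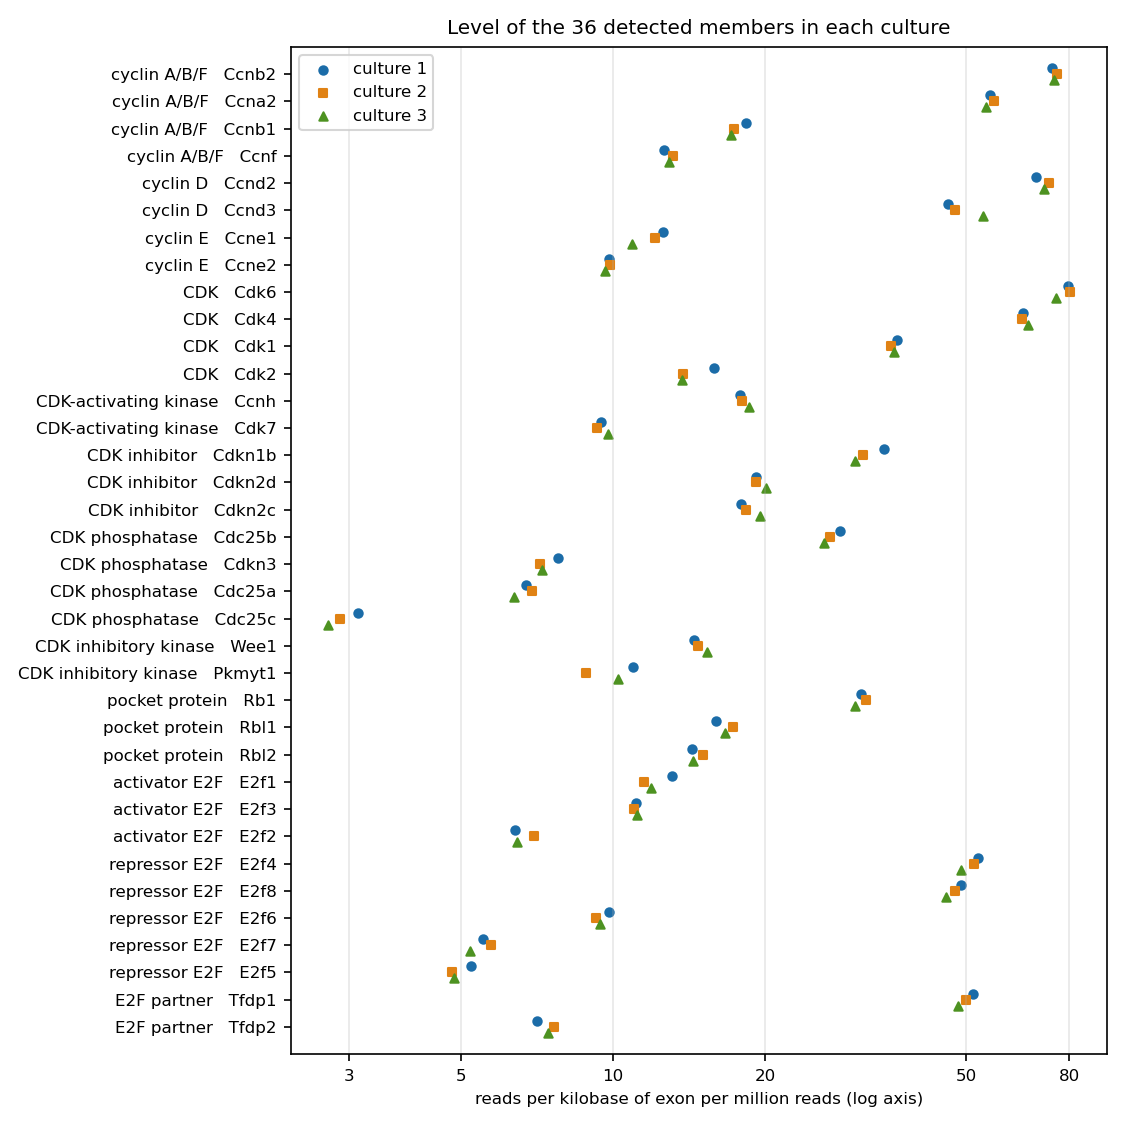
Levels of the 36 detected members in RPKM on a log axis, grouped by role. Each symbol is a culture; Cdk6 (78.4 on average) and Ccnb2 (74.7) lie highest and Cdc25c (2.91) lowest, and the 3 cultures lie close together beside the distances between most genes.

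Cdk6 was the most abundant member by reads. Cdk6 (chromosome 5, 3341485 to 3531008, plus strand), a partner of D-type cyclins prominent in blood cells, stood at 1112, 1122 and 1055 CPM, and Cdk4 (chromosome 10, 127063534 to 127067920, plus strand), the other partner, at 211, 209 and 216. Their per-kilobase order depended on the length: Cdk6 was 1.203 ± 0.0582 times Cdk4 with the exon union, 0.922 ± 0.0446 times with the longest transcript and 4.81 ± 0.233 times with the coding length. The Cdk6 exon union is 13989 bases long against a coding length of 978, and 3249 against 909 for Cdk4. Cdk4 shares 19.7% of its exon bases with Tspan31 on the other strand, a gene read at 92.9 CPM.

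Cdk1, the mitotic kinase, stood at 179.97, 175 and 177 CPM, and Cdk2, the kinase of cyclins E and A, at 98.5, 85.7 and 85.1 with culture 1 highest. Cdk1 was 2.50 ± 0.174 times Cdk2 per kilobase of exon union and 1.48 ± 0.103 times with the longest transcript. The CDK-activating kinase, which phosphorylates the other CDKs, was read at 35.1, 34.4 and 36.2 for its catalytic gene Cdk7 and at 55.3, 55.8 and 57.6 for its cyclin gene Ccnh. The ranges of neighbouring genes in the per-kilobase order of CDKs and Ccnh did not overlap between cultures.

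Among the member inhibitor genes Cdkn1b had the highest level. Cdkn1b, the gene of p27, which binds cyclin-CDK2 complexes, stood at 156, 142 and 137 CPM, highest in culture 1. The INK4 genes, whose products bind CDK4 and CDK6, stood at 48.1, 49.2 and 52.4 for Cdkn2c (p18) and 30.1, 30.3 and 31.6 for Cdkn2d (p19). Per kilobase Cdkn1b was at 31.9 ± 2.21, Cdkn2d at 19.5 ± 0.526 and Cdkn2c at 18.6 ± 0.834. The culture ranges of Cdkn2d and Cdkn2c overlapped. Their order turned with the coding length, where Cdkn2c was 1.61 ± 0.0302 times Cdkn2d. Cdkn1b was 2.21 ± 0.0510 times Cdk2 per kilobase of exon union and 1.16 ± 0.0268 times with the longest transcript. The other inhibitor genes, listed apart from the members, were split: Cdkn1a, the p21 gene, stood at 517, 490.4 and 508 CPM. Cdkn1c stood at 0.0936, 0.0590 and 0.0807 CPM, at the 3-read floor in cultures 1 and 3 and below it in culture 2. Cdkn2b averaged 0.0188 CPM, below that floor in every culture, and Cdkn2a had no read.

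The CDC25 phosphatases, which remove the inhibitory phosphates from CDKs, were all detected. Cdc25b led at 105, 100.03 and 97.4 CPM, followed by Cdc25a at 54.0, 55.5 and 51.2 and Cdc25c at 15.4, 14.2 and 13.4. Per kilobase Cdc25b was 4.05 ± 0.154 times Cdc25a with the exon union, 2.29 ± 0.0872 with the longest transcript and 1.68 ± 0.0640 with the coding length. Cdc25c, at 2.91 ± 0.202 per kilobase, was the lowest detected member under the exon union. Cdkn3, which encodes a phosphatase of the activating site of CDKs, stood at 18.4, 16.97 and 17.1 CPM. Of the opposing kinases, Wee1 stood at 49.5, 50.2 and 52.4 and Pkmyt1, a membrane-bound relative, at 39.9, 32.1 and 37.2. Pkmyt1 had the largest ratio between cultures of any detected member, 1.24, with culture 2 lowest. Wee1 was 1.496 ± 0.172 times Pkmyt1 with the exon union. With the coding length it was 1.06 ± 0.122 times, less than the SD away from equal levels.

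All 3 pocket protein genes were detected. Rb1, the retinoblastoma gene (chromosome 14, 73183673 to 73325822, minus strand), led at 186, 190.1 and 181 CPM, with Rbl1, the p107 gene, at 96.0, 104 and 99.9 and Rbl2, the p130 gene, at 108, 114 and 109. Rb1 was 1.86 ± 0.0702 times Rbl1 per kilobase of exon union and made up 49.7 ± 0.726% of the family total. Rb1 led under each length tried, with 48.2 ± 0.700% of the total by longest transcript and 51.4 ± 0.706% by coding length. Rbl1 to Rbl2 was 1.14 ± 0.0206 with the exon union and 0.917 ± 0.0165 and 0.966 ± 0.0174 with the longest transcript and the coding length, so their order was not fixed by these data. Rbl2 shares exon bases on the other strand with Aktip (9.17%, read at 23.0 CPM).

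The E2F family was dominated by E2f4 and E2f8. E2f4 (chromosome 8, 105297663 to 105305370, plus strand), known as a repressor that works with p107 and p130, stood at 129, 127 and 119.6 CPM, and E2f8 (chromosome 7, 48866429 to 48881596, minus strand), an atypical repressor with a doubled DNA-binding domain, at 265, 258 and 248. Per kilobase of exon union E2f4 took 34.5 ± 0.431% and E2f8 31.9 ± 0.0501% of the family total. With the coding length their shares were 25.95 ± 0.427% and 25.4 ± 0.147%, still the highest of the family, and with the longest transcript E2f8 led with 35.4 ± 0.0523% against 31.9 ± 0.398%. E2f7, the close relative of E2f8, stood at 49.8, 51.7 and 47.0 CPM, and E2f8 was 8.61 ± 0.305 times E2f7 per kilobase of exon union and 5.47 ± 0.194 times with the coding length. E2f8 shares 11.2% of its exon bases with Gm2788 on the other strand (3.07 CPM).

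The activator genes lay lower. E2f1 stood at 41.2, 36.3 and 37.5 CPM, E2f2 at 31.2, 34.0 and 31.5 and E2f3 at 60.4, 59.8 and 60.5. Per kilobase of exon union they were at 12.1 ± 0.813, 6.60 ± 0.315 and 11.1 ± 0.0702, and E2f4 was 4.22 ± 0.248 times E2f1. E2f1 to E2f2 was 1.85 ± 0.196 with the exon union and 1.23 ± 0.130 with the coding length. E2f6, a repressor that does not bind pocket proteins, stood at 55.7, 52.4 and 53.3 CPM and E2f5, the relative of E2f4, at 9.33, 8.56 and 8.63, the lowest of the family. The culture ranges of E2f7 and E2f5 per kilobase overlapped. Of the DP partners with which E2F1 to E2F6 bind DNA, Tfdp1 stood at 189, 183 and 176 and Tfdp2 at 99.2, 107 and 104. Tfdp1 was 6.76 ± 0.467 times Tfdp2 with the exon union, 4.67 ± 0.322 with the longest transcript and 1.92 ± 0.133 with the coding length. Of the Tfdp1 windows, 16.8% also occur in the processed pseudogene Gm7390, read at 3.26 CPM.

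**Figure D2:**
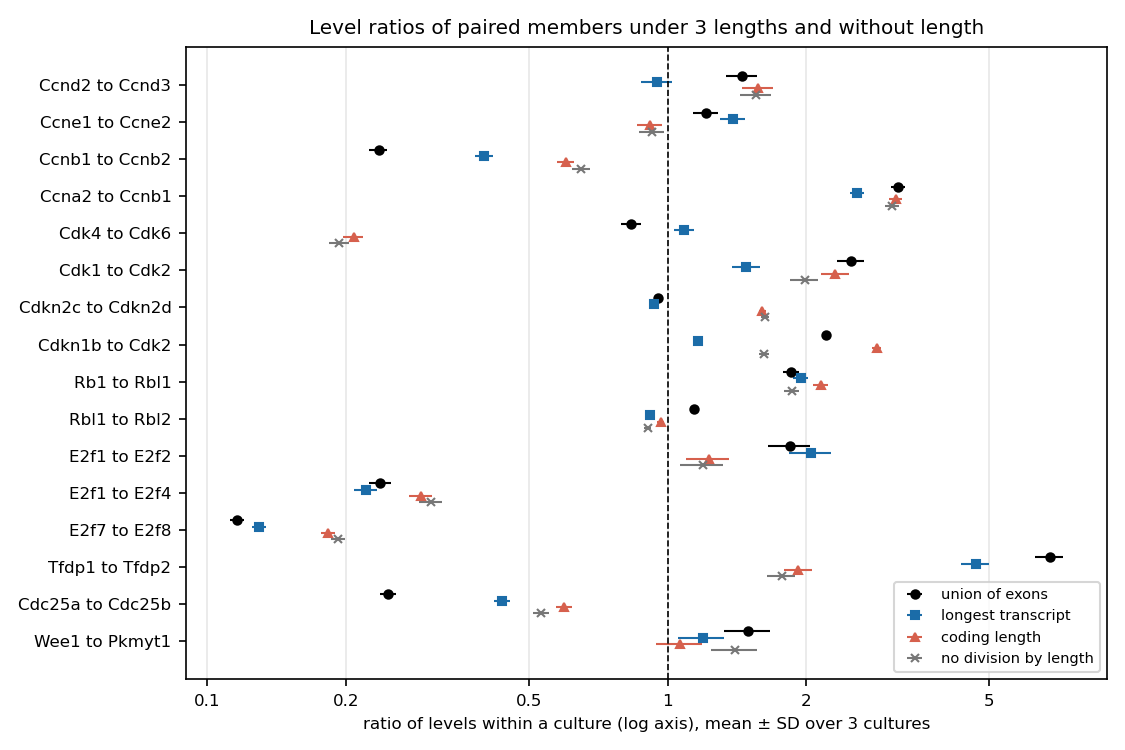
Ratio of the per-kilobase levels of 16 pairs of members within a culture on a log axis, as mean ± SD over 3 cultures, with the exon union (circles), the longest transcript (squares), the coding length (triangles) and without length (crosses). The dashed line marks equal levels. The means of Ccnd2 to Ccnd3, Ccne1 to Ccne2, Cdk4 to Cdk6, Cdkn2c to Cdkn2d and Rbl1 to Rbl2 lie on both sides of it. The pair Ccnd3 to Ccnd1, at 686, is not plotted.

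Across the whole set, 29 of the 36 detected members lay above the median of detected genes per kilobase of exon union. Their median was 15.7, beside 8.65 for all detected genes. Within the families, 29 pairs of genes were neighbours in the order of levels, and 2 of these, named above, had culture ranges that overlapped. By the longest transcript 21 of the 29 pairs kept their order, and by the coding length 19. With 3 values a gene, an exact permutation test cannot go below p = 0.1, so no test of single pairs was made. Of the 39 members, 18 had no 50-base window in common with another gene's transcripts and 9 had more than 10% in common.

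Differences between cultures were tested with a chi-square test of Poisson heterogeneity on the whole reads of each gene, with Benjamini-Hochberg adjustment over all 13139 genes with a mean of at least 10 reads. The test asks whether libraries differ beyond counting noise and not whether a condition acts. In bulk RNA, fewer cells of a kind or phase and less RNA per cell cannot be told apart. It called 15 of 37 tested members, or 40.5%, at an adjusted p under 0.05, while it called 32.7% of all tested genes. Members had more reads, with a median of 2810.3 per culture for the detected members beside 971 for all tested genes, and the share of genes called went from 15.7% at 10 to 300 reads to 83.4% above 10000. A common dispersion fitted over all tested genes (0.00497, a coefficient of variation of 7.05% beyond counting noise) was then added as negative binomial variance. With it no member was called by the same chi-square test, also at an unadjusted p under 0.05, while 3.68% of all tested genes were. That dispersion was fitted to the same 3 libraries and so already holds the spread between them. The lack of calls therefore cannot show that the members did not differ. The ratio of the highest to the lowest culture had a median of 1.07 over detected members, beside 1.09 over all detected genes, and ran from 1.01 for E2f3 to 1.24 for Pkmyt1.

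**Figure D3:**
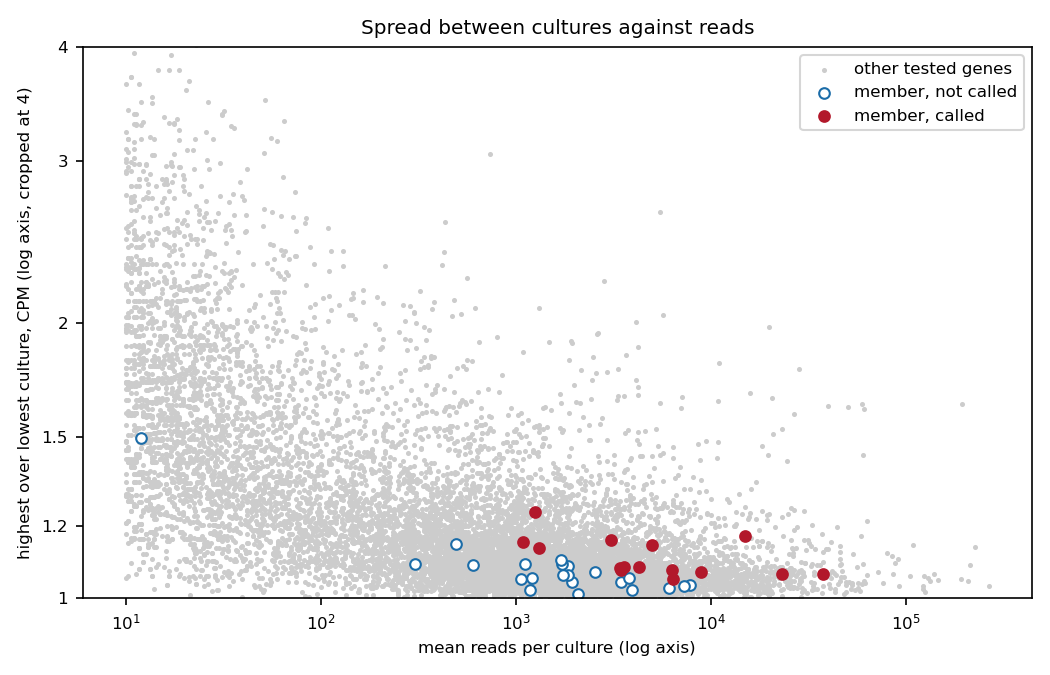
Ratio of the highest to the lowest culture in CPM against mean reads per culture, both on log axes, for 37 tested members and 13102 other tested genes, of which 39 lie above the crop at 4. Filled red points are the 15 members called by the chi-square test and open points the 22 that were not; Ccnd1, with the fewest reads of these, has the largest ratio, 1.496, and was not called.

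The 3 members with the most reads, Cdk6, Ccnd2 and Ccnd3, were all called. By the chi-square test with Benjamini-Hochberg adjustment, Ccnd3 had the smallest adjusted p (adjusted p = 4.7e-47), with culture 3 at 1.17 times culture 1, followed by Cdk6 (1.3e-17, 1.06 times, culture 3 lowest), Cdkn1b (7.6e-10, 1.14 times, culture 1 highest), Cdk2 (7.9e-09, 1.16 times, culture 1 highest), Ccnd2 (1.7e-08, 1.06 times, culture 1 lowest) and Pkmyt1 (5.8e-06). The same adjusted test called E2f8 (0.000375), Tfdp1 (0.00201), E2f4 (0.00301), Ccne1 (0.0112), E2f1 (0.0137), Tfdp2 (0.0194), Rbl1 (0.0272), Cdc25b (0.0359) and Rb1 (0.049999). Ccnd3 and Ccnd2 were thus both lowest in culture 1, while Cdk2, Cdkn1b and E2f1 were highest there. None of the cyclins A2, B1, B2 and F was called, nor Cdk1 and Cdk4.

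Every one of the 15 calls ended when some single culture was left out, with the same chi-square test and Benjamini-Hochberg adjustment. With 3 libraries, leaving out the culture furthest from the others takes away most of the difference tested, and reads with it. The end of a call is thus partly built in and shows only which culture it rested on. Without culture 1, 5 calls were kept and 10 ended: the adjusted p was 0.150 for Ccnd2, 0.0937 for Ccne1, 0.923 for Cdk2, 0.240 for Cdkn1b, 0.565 for Cdc25b, 0.367 for Rbl1, 0.693 for E2f1, 0.0839 for E2f8, 0.207 for Tfdp1 and 0.549 for Tfdp2. Culture 2 decided the call of Pkmyt1, whose adjusted p by this chi-square test was 0.174 without it, and those of Rb1 (0.201), Rbl1 (0.227) and Tfdp2 (0.0945) ended too. Leaving out culture 3 gave adjusted chi-square p-values of 0.0619 for Ccnd3, 0.637 for Ccne1, 0.461 for Cdk6, 0.207 for Cdc25b, 0.533 for Rb1, 0.607 for E2f4, 0.202 for E2f8 and 0.176 for Tfdp1. The members called numbered 6 without culture 1, 12 without culture 2 and 7 without culture 3, while the share called of all tested genes was 11.1%, 29.5% and 20.2%. Among the 5 calls kept without culture 1 were Ccnd3, Cdk6 and Pkmyt1. With trimmed mean of M values scaling, 5 calls ended by the adjusted chi-square test, those of Cdc25b (0.253), Rb1 (0.174), E2f4 (0.0614), E2f8 (0.0583) and Tfdp1 (0.0891), while Cdk4 (0.0174) and Cdkn2c (0.0129) passed.

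The members' highest culture was set beside that of all detected genes. Culture 1 was the highest for 15 of the 36 detected members, culture 2 for 13 and culture 3 for 8, beside 41.5%, 27.3% and 31.2% of all detected genes. The median difference of log2(CPM + 1) from the mean of the other cultures was 0.013 in culture 1, -0.014 in culture 2 and -0.033 in culture 3, while all detected genes had 0.00808, -0.00827 and -0.0131. In culture 1, 22 of 36 members lay above the mean of the others, beside 53.1% of detected genes; with trimmed mean of M values scaling the count was 16, beside 44.1%. In culture 2, 17 members lay above it, beside 45.9%, and in culture 3, 14, beside 44.5%. Base composition moved with these differences: across 10985 detected genes the difference in culture 3 had a Spearman rho of 0.308 with the GC content of the longest transcript, against -0.133 in culture 1 and -0.253 in culture 2, values from the same 3 libraries. Detected members had a median GC content of 48.3%, beside 49.5% for all detected genes, and the part of GC content in the members' differences was not tested. The largest single differences were those of Ccnd3 in culture 3 (0.21), Cdk2 in culture 1 (0.20) and Pkmyt1 in culture 2 (-0.25).

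**Figure D4:**
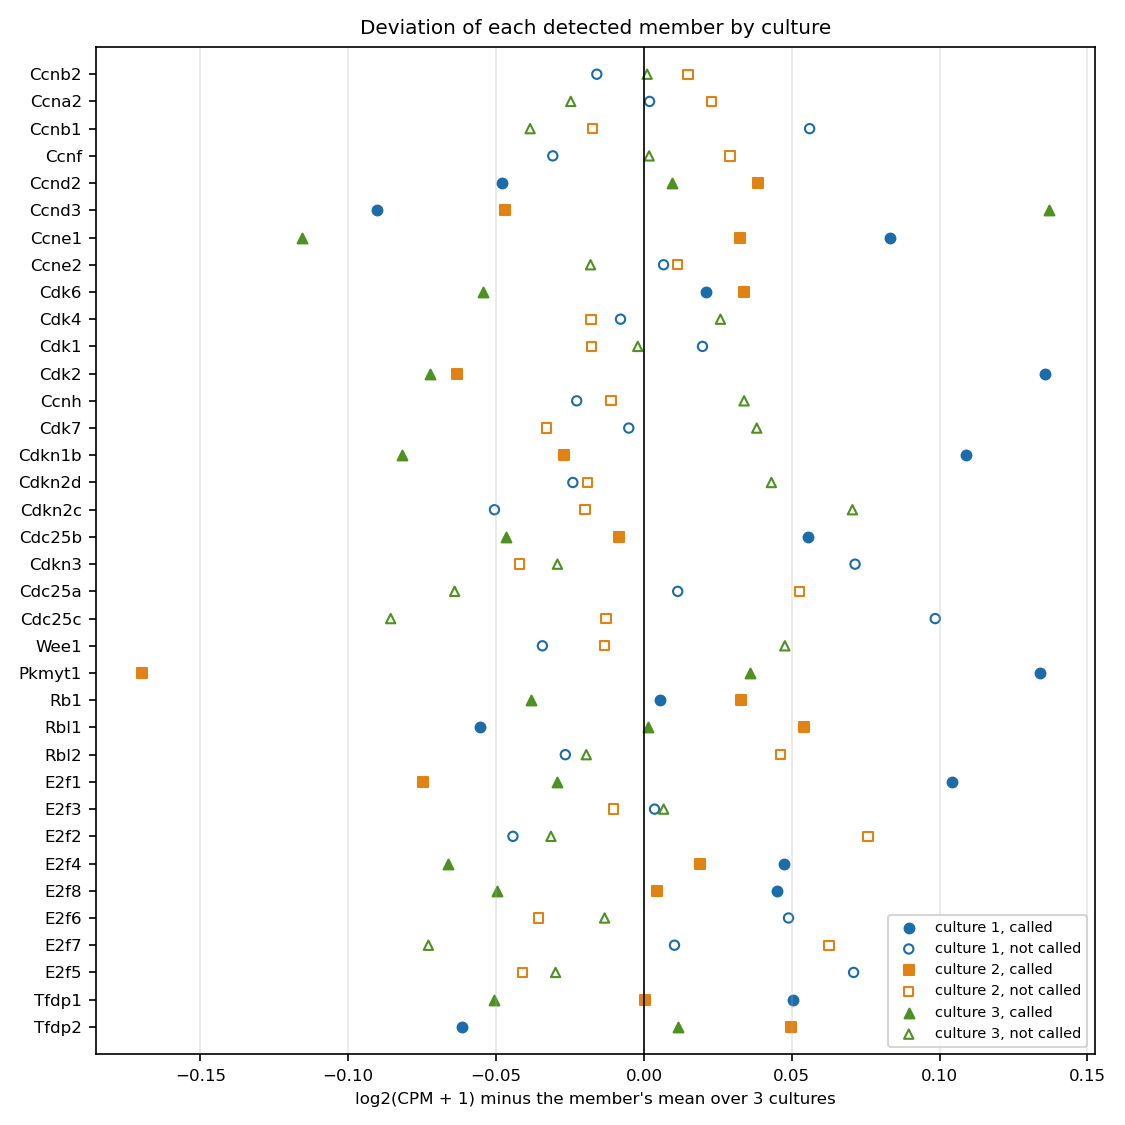
Difference of each detected member's log2(CPM + 1) in a culture from its mean over 3 cultures, with filled symbols for members called by the chi-square test and open ones for the others. Ccnd3 is high in culture 3, Cdk2 and Cdkn1b are high in culture 1 and Pkmyt1 is low in culture 2, while E2f3, Cdk1 and Ccne2 lie close to 0 in all cultures.

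The surrounding cell cycle genes were expressed almost throughout. All 12 CDK cofactors and ubiquitin ligase genes were detected. The chi-square test called 2 of them, Cdc20 and Fzr1, as differing between cultures, beside 32.7% of all tested genes. This list was led per kilobase by Cks2 (109), Skp1a (98.7) and Cdc20 (72.3), which encode a CDK-binding subunit, a ubiquitin ligase core subunit and an activator of the anaphase-promoting complex. Mnat1, the assembly factor of the CDK-activating kinase, stood at 7.66 per kilobase. All 8 partners of the DREAM and MuvB complexes were detected. These complexes hold pocket proteins and E2F4 at promoters or replace them with MYBL2 and FOXM1. The test called 2 of the partners (Rbbp4 and Foxm1), beside the same 32.7%. Rbbp4 (30.2 per kilobase), Dyrk1a (20.5) and Mybl2 (17.4) led. All 16 E2F target genes of replication and nucleotide supply were detected, with Rrm2 (167 per kilobase), Mcm6 (107) and Pcna (89.2) highest. The test called 9 of them, beside 32.7% of all tested genes, a share that rises with reads. Among 14 other cyclins and CDKs, 11 were detected, led by Ccng1 (212), Ccni (77.1) and Ccng2 (38.0), while Ccno, Ccnjl and Cdk20 had no read. Of the 11 detected, 7 were called by the chi-square test, beside 32.7% of all tested genes.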

How the data were processed

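The authors' deposited table gives, per gene and culture, log2 values, which are log2(reads per 10000000 gene reads + 1): with the log undone, every column totals 10000000. Per the series' design text, strand-marked mRNA libraries were read as 50-base single-end reads, aligned to GRCm38 with HISAT2 and counted with GenSum; the tool versions, strand setting and annotation release were not given in the sources used here. Dividing by the value of 1 read gave whole numbers for 100% of entries (tolerance 0.01). Those reads, 32044889 to 37180883 per culture, were used here. Counting noise alone gives a coefficient of variation of 0.516% for Cdk6 and 5.74% for E2f5, the highest and lowest detected members by reads.

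Cultures 1 and 2 follow the table's gene identifiers and culture 3 its symbols and coordinates; they were joined through GENCODE M21 (GRCm38), by coordinates for 54916 rows and by symbol for 345, and 225 rows had no match. Labels number the replicates and do not say whether each is a separate culture. The chi-square p-values measure departure from counting noise between these libraries, which depends on reads as well as on the size of the spread. CPM used column sums; log2(CPM + 1) had a pseudocount of 1. Exon unions, transcripts and coding lengths came from GENCODE M21, promoters from RefSeq. The chi-square test was tested on simulated reads that held counting noise and seeded changes only. Such reads do not show how the test behaves under the further spread between these libraries. The planned protein comparison was not made, and 50-base windows were compared with annotated transcripts in place of a genome. The members and lists were chosen with earlier results of these data known. All members were to be named, and of other lists the 3 highest per kilobase and up to 3 undetected; other names were chosen after their values were seen. Alternatives covered detection, scaling, read minimum, dispersion, length, pseudocount, row order and each culture left out. Python 3.11.15, numpy 2.4.6 and scipy 1.17.1 were used.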

Additional observations from a re-analysis of the deposited data

How the results depend on the processing

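The count of detected members stayed at 36 under every detection threshold (0.5 and 5 CPM), scaling and row order tried and without each culture. The count of members called between cultures was 15. It was 0 with the negative binomial dispersion (3.68% of all tested genes called), 6 to 12 when a culture was left out (11.1 to 29.5%), 12 and 15 under the other scalings (34.3% for each), 13 with no read minimum (16.98%), 16 with a minimum of 100 reads (40.2%) and 15 on the rows as deposited (30.3%). Of the 15 calls, 10 were kept with trimmed mean of M values scaling, 12 with median-of-ratios scaling and 11 on the rows as deposited. There, by the adjusted chi-square test, Ccne1 (0.732), E2f4 (0.795), E2f8 (0.340) and Tfdp1 (0.274) were no longer called, and Ccna2, Ccnb2, Cdc25c and Wee1 were. The median difference of the members in culture 1 turned from 0.0127 to -0.0126 and -0.0136 with these 2 scalings in turn, and that in culture 3 moved from -0.0332 to -0.00654 with the first. The median over all detected genes moved as well. In culture 1 it went from 0.00808 to -0.0164 and -0.0173 with these scalings. In culture 3 it went from -0.0131 to 0.0129 with the first. Any part particular to the members was not tested. Of 17 level ratios, those of Ccnd2 to Ccnd3 (0.947), Cdk4 to Cdk6 (1.09) and Rbl1 to Rbl2 (0.917) turned with the longest transcript. With the coding length Ccne1 to Ccne2 (0.915), Cdkn2c to Cdkn2d (1.61) and Rbl1 to Rbl2 (0.966) turned, and without length Ccne1 to Ccne2 (0.924), Cdkn2c to Cdkn2d (1.63) and Rbl1 to Rbl2 (0.905). No paired analysis was possible because the cultures form 1 group and there is no other group to pair them with; the level ratios compare genes within a culture.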

Other observations

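Of the cyclins and CDKs of transcription and splicing, all 11 listed were detected. The chi-square test called 7 of them, beside 32.7% of all tested genes, a share that rises with reads. Ccnl2, a cyclin gene linked to splicing, stood at 167, 103 and 96.4 CPM in cultures 1, 2 and 3 and its relative Ccnl1 at 94.6, 61.7 and 57.3, so culture 1 lay above the others for both. Ccnt2, the gene of a cyclin partner of CDK9, stood at 94.3, 77.6 and 73.9, and Cdk10, from the list of other cyclins and CDKs, at 29.9, 21.2 and 20.8, with culture 1 again highest; these 4 genes were chosen after their values were seen. Per kilobase Ccnk (27.3), Ccnl2 (23.1) and Cdk19 (16.9) led. No gene of the transcription list lay above the mean of the other cultures in culture 3, beside 44.5% of detected genes, and 2 did with trimmed mean of M values scaling, beside 55.7%.

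Marker lists of cell cycle phases were detected in full: 40 of 40 for S phase, a list that shares genes with the E2F targets, and 49 of 49 for G2 and M phase, a list that shares Cks1b, Cks2 and Cdc20 with the CDK cofactors. Of the S phase markers 14 were called by the chi-square test and of the G2 and M markers 31, beside 32.7% of all tested genes. That share rises with reads, to 51.5% of genes with 3000 to 10000 reads and 83.4% above 10000. The lists were not matched for reads. S phase markers were led by Rrm2, Mcm6 and Pcna, given above, and the G2 and M list by Tubb4b (150.3 per kilobase), Cks2 and Top2a (108). In culture 3, 13 of 49 G2 and M markers lay above the mean of the others, beside 44.5% of detected genes, and 19 with trimmed mean of M values scaling, beside 55.7%. Their median log2 difference there was -0.0619, beside -0.0131 for all detected genes, and -0.0354 beside 0.0129 with that scaling. S phase markers had 0.00381 and 0.0302 on the same scales. Over all detected genes the difference in culture 3 rose with GC content (Spearman rho 0.308). The part of GC content in the differences of these lists was not tested. Hjurp, the gene of the centromere histone chaperone, stood at 354, 309 and 289 CPM and Cenpa, the gene of that histone, at 133, 103 and 103, both highest in culture 1 and named after their values were seen.

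In the deposited table, all 39 rows that carry a member's symbol carry the identifier of another gene. The rows run by falling average, with 1 exception, and the identifier and the symbol of a row mostly belong to genes of like level. The authors' average on a symbol's row was for none of the 39 members over 2 times off the joined mean. With genes of like level on a row, such closeness would arise under either pairing and does not decide between them. Over all detected genes, the median absolute log2 difference between culture 3 and the mean of the others was small on the rows as deposited (0.0586) and after joining (0.0672), beside 0.0697 between cultures 1 and 2. By level in culture 1, it was 0.102 as deposited and 0.121 after joining for 2124 genes from 1 CPM, and 0.0517 and 0.0655 for 6386 from 10 CPM. It was 0.0521 and 0.0470 for 2397 from 100 CPM, and 1.37 and 0.0590 for 84 from 1000 CPM. The rows as deposited thus lay closer below 100 CPM and the joined genes above it. Because the order of the rows pairs genes of like level, a small difference on the rows as deposited cannot show which pairing is right. A fit on the rows as deposited, chosen after the data were seen, used GC content and log length of the genes of both the identifier and the symbol, with the average and its square as covariates. Over 10918 rows, culture 3 minus the mean of the others changed by 0.0295 (log2) per SD of the GC content of the symbol's gene and 0.0145 per SD of that of the identifier's gene. For culture 1 minus culture 2, the slope was 0.0126 per SD of log length for the identifier's gene and -0.00312 for the symbol's gene. Its slopes for GC content were -0.00127 for the identifier's gene and -0.000784 for the symbol's gene. The slopes of the culture 3 difference for log length were -0.00920 for the identifier's gene and -0.0175 for the symbol's gene.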
